A study of Mus musculus with 6 samples.

Results

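The hypoxia-inducible factor (HIF) pathway genes described here are 10 of the 54532 genes in the deposited count table, taken by gene symbol. They are the HIF alpha subunit genes Hif1a and Epas1, the prolyl hydroxylase genes Egln1 and Egln3, and 6 genes that HIF is known to induce: Car9, Vegfa, Bnip3, Ndrg1, Adm and Ankrd37. Each symbol matched 1 row. The libraries came from TM3, an established mouse line of testicular origin labelled as Leydig cells, the androgen-producing cells of the testis. A group of 3 libraries is labelled as the control of the overexpression, with wild-type genotype, and 3 libraries are labelled as A20 overexpression. A20 is the protein of Tnfaip3, an editor of ubiquitin chains that restrains NF-kB signalling. Per the labels both groups grew in the same serum-supplemented medium, and no hypoxic treatment is named. The labels give neither the vector, nor the species of the A20 sequence, nor whether a group was 1 clone or its libraries separate cultures. The p-values therefore measure only the spread between these libraries, which may be technical.

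HIF is a transcription factor made of an oxygen-regulated alpha subunit and a constant partner, ARNT. Where oxygen is plentiful, prolyl hydroxylases of the EGLN family mark the alpha subunit for destruction by the VHL ubiquitin ligase. Where oxygen is short, the alpha subunit escapes, enters the nucleus and switches on genes of glycolysis, acid handling, blood vessel growth and mitochondrial turnover. HIF induces Egln1 and Egln3 as well, which closes a feedback loop. Regulation of HIF-1 alpha is largely at the level of its protein, which these RNA data do not measure. In the testis, Leydig cells lie outside the seminiferous tubules, next to blood vessels.

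HIF binds a short core, ACGTG or GCGTG, in DNA near its target genes. Promoter windows of GRCm38.p6 from RefSeq were found for 8 of the 10 genes, in 9 windows because Vegfa has 2 start sites. None was found for Epas1 and Ndrg1. In the 250 bases before the start, ACGTG was found on either strand in 7 of the 9 windows, against 16.6% of 32851 windows of the same length. GCGTG was found in the windows of Egln1, Bnip3, Adm and Ankrd37 and in a window of Vegfa, whose other window held neither core. Of all windows, 28.2% hold GCGTG and 38.6% hold either core. The genes were listed because HIF is known to act on them, so their share is a description, and a match is not shown to be a bound site. The nearest ACGTG to the start is given here for 6 genes, in 30 bases read 5′ to 3′ on the strand that holds the core, which is in capitals. These lines let the genes that moved in opposite directions be seen side by side.
Egln1: gggccgtggtgtACGTGcagcgcgcgcgga
Car9: tggacgggctgtACGTGcatcggaaatagg
Bnip3: cgcacgcgccgcACGTGccacacgctcccc
Egln3: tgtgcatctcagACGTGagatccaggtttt
Hif1a: tggctgagagcaACGTGggctggggtgggg
Ankrd37: cagtgtttgggtACGTGaggccgcagcggg

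In order, these stretches are chr8:124949305-124949334 (minus strand), chr4:43506995-43507024 (minus), chr7:138909596-138909625 (minus), chr12:54204086-54204115 (minus), chr12:73907785-73907814 (plus) and chr8:45999839-45999868 (minus), all in GRCm38.p6. Car9 lies on the plus strand, so its core is on the strand opposite to the gene. The core began 68 bases before the RefSeq start in Egln1, 18 in Car9, 107 in Bnip3, 229 in Egln3, 70 in Hif1a and 6 in Ankrd37. RefSeq starts differ from the deposited gene coordinates given below. By those coordinates the cores of Egln1, Car9, Hif1a and Ankrd37 lie inside the gene, and those of Bnip3 and Egln3 before it. Egln1 and Car9 share the 10 letters tgtACGTGca around the core. The match of Vegfa lay before its internal start, and the window of Adm held GCGTG, not ACGTG. Bnip3 held the densest cluster, with 2 matches to ACGTG, which are the same CACGTG palindrome read on each strand, and 3 to GCGTG. Its stretch before the annotated gene, chr7:138909520-138909756 on the minus strand, reads as follows, with the palindrome in capitals.
Bnip3 upstream: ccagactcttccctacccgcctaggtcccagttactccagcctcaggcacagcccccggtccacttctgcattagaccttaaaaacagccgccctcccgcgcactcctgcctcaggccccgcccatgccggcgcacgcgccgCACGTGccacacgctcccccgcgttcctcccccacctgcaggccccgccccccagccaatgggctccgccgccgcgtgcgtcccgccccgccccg

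Total counts ran from 13841287 to 16917979 per library. CPM is the count scaled to the library's total count. Control replicate 1 differed from the other 5 libraries over much of the transcriptome. Across 13350 genes, which are not independent replicates, its log2 CPM correlated with theirs at 0.914 to 0.934 (Pearson). Theirs correlated with one another at 0.958 to 0.987. For these correlations alone, CPM were also scaled by the TMM factors of edgeR. The Leydig markers Cyp11a1, Star, Hsd3b1, Cyp17a1, Nr5a1, Insl3 and Lhcgr summed to 2039 CPM in control replicate 1. They summed to 3.97 to 6.29 CPM in control replicates 2 and 3 and to 5.26 to 7.86 CPM with A20. Hsd3b1, Cyp17a1 and Lhcgr had no count in the other 5 libraries, which thus lack these markers of the labelled cell type. Cyp17a1 was low in control replicate 1 too, at 1.56 CPM. The other 5 libraries held Star at 2.52 to 4.54 CPM, Insl3 at 0.418 to 2.91 CPM and Nr5a1 at 0.0697 to 0.596 CPM, and 2 counts of Cyp11a1 in all. The edgeR test was therefore run on the 6 libraries and again on the 5 that remain when control replicate 1 is left out. Tnfaip3 itself stood at 41.0, 33.7 and 43.6 CPM with A20 and at 30.9, 11.9 and 15.2 CPM in control. With all 6 libraries its log2 fold change was 1.08 and did not pass (edgeR adjusted p = 0.331). Without control replicate 1 it was 1.505 (edgeR adjusted p = 0.000256). The fit on 6 libraries thus did not call the overexpressed gene itself. The macrophage markers Adgre1 and Ptprc, the Sertoli marker Sox9 and the germ cell marker Dazl had no count in any library. The 4 Sertoli markers summed to 225 CPM in control replicate 1, to 22.9 to 31.3 CPM in the other controls and to 9.28 to 13.5 CPM with A20, nearly all from Clu. The 4 macrophage markers summed to 4.23, 30.7 to 30.9 and 19.3 to 38.8 CPM in the same order, mostly from Cd68, the 3 peritubular markers to 84.8, 38.3 to 54.3 and 33.0 to 41.9 CPM, the 3 germ cell markers to 9.38, 6.06 to 7.95 and 7.95 to 12.2 CPM, and the 4 endothelial markers to 36.7, 3.97 to 4.48 and 3.31 to 5.11 CPM. The peritubular and endothelial genes did not move together. Acta2 (77.6 CPM) and Cdh5 (35.05 CPM) made up most of those sums in control replicate 1. Myh11 and Pecam1 were also highest there, with 0.586 CPM each. Des and Egfl7 were lowest there, with 6.58 and 1.04 CPM, while elsewhere they held 14.7 to 19.3 and 3.05 to 4.47 CPM. Tek had no count in any control. The part of all these cell type markers in the results was not tested. In bulk RNA, fewer cells of a type and less RNA per cell cannot be told apart.

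Without control replicate 1, cells overexpressing A20 had more RNA of Egln1, the main oxygen-sensing prolyl hydroxylase, and less of Car9, a cell-surface carbonic anhydrase used as a marker of hypoxia. Egln1 rose 1.90-fold and Car9 fell 1.77-fold. Hif1a RNA did not pass the test, with a log2 fold change of -0.08 ± 0.15 (SE). Of the 6 members abundant enough to be tested, 1 rose, 1 fell and 4 did not pass in edgeR, where 4.6% of 13658 genes were called (1.92% higher, 2.68% lower). An unadjusted p under 0.05 was found for 3 of the 6, Bnip3 being the third, and for 21.6% of all genes. With all 6 libraries edgeR called 0 of the 6, where 0.015% of 13350 genes were called and 10% had an unadjusted p under 0.05; 2 members, Bnip3 and Car9, had such a p. DESeq2 and limma-voom also called 0 of the 6 members with all 6 libraries.

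**Figure D1:**
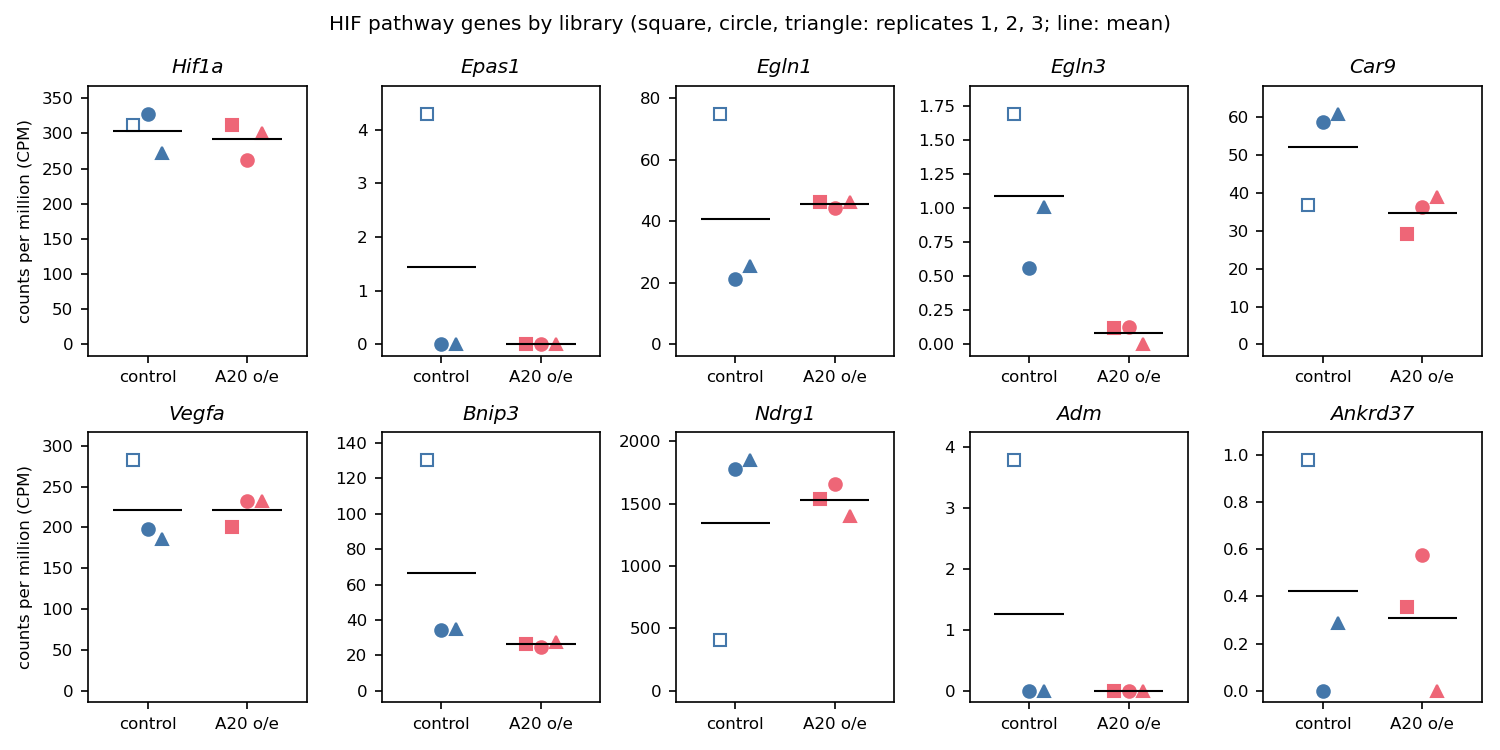
CPM (y axis, linear) of the 10 HIF pathway genes in each library, controls in blue and A20 overexpression in red, with squares, circles and triangles for replicates 1, 2 and 3 and a line at each group mean. The open square, control replicate 1, lies above the other controls for Egln1 (75.1 CPM) and Bnip3 (130.2 CPM) and below them for Car9 (36.9 CPM) and Ndrg1 (408 CPM).

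The alpha subunits were unequal. Hif1a (ENSMUSG00000021109, chromosome 12, 73901375 to 73947530, plus strand), the broadly expressed subunit, stood at 312, 328 and 272 CPM in control replicates 1, 2 and 3 and at 312, 262 and 301 CPM in A20 replicates 1, 2 and 3. The groups overlapped, and control replicate 1 lay among the other libraries. On 6 libraries its log2 fold change was -0.04 ± 0.17 (SE, edgeR adjusted p = 0.955), and without control replicate 1 the adjusted p was 0.808. Epas1 (ENSMUSG00000024140, chromosome 17, 86753907 to 86833410, plus strand), which encodes HIF-2 alpha, had 66 counts in control replicate 1, or 4.30 CPM, and 0 counts in each of the other 5. In a library with 0 counts the true level may reach 3 counts, which is 0.177 to 0.217 CPM here. The observed 4.30 CPM of Epas1 in control replicate 1 was 19.8-fold the highest such limit of a single library. The counting error of the 66 counts is not part of that figure. Reads without molecular identifiers are not independent molecules, so such limits hold for counting error alone. Per length, Epas1 was at 0.727 FPKM in control replicate 1, where Hif1a was at 47.5 FPKM.

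Without control replicate 1 Egln1 rose, while Egln3, too low for the test, held fewer counts in A20 overexpression than in control. Egln1 (ENSMUSG00000031987, chromosome 8, 124908587 to 124949324, minus strand), which encodes PHD2, stood at 21.4 and 25.5 CPM in control replicates 2 and 3 and at 46.2, 44.4 and 46.4 CPM in A20 replicates 1, 2 and 3. These groups were separate, and the A20 libraries were, relative to their mean, the tightest of any tested member, at 45.6 CPM ± 1.08 (SD, n = 3) against 23.5 CPM ± 2.90 (SD, n = 2). The log2 fold change was 0.93 ± 0.16 (SE), with an adjusted p of 0.00437 in edgeR, and the sign and the call were kept in all 16 other settings tried on these 5 libraries. Control replicate 1, at 75.1 CPM, lay above every A20 library and not with the other controls. With it the log2 fold change was 0.24 ± 0.38 (SE, edgeR adjusted p = 0.867), and the control mean was 40.7 CPM ± 29.9 (SD, n = 3). Whether control replicate 1 or the other controls stand for untreated TM3 cells cannot be read from the labels.

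Egln3 (ENSMUSG00000035105, chromosome 12, 54178981 to 54203860, minus strand), which encodes PHD3 and is strongly induced by HIF in many cells, had 26, 8 and 14 counts in control replicates 1, 2 and 3 and 2, 2 and 0 counts with A20. In CPM these were 1.69, 0.558 and 1.01 against 0.118, 0.128 and 0. Each control lay above each A20 library, with control replicate 1 the highest. Groups did not overlap for 16.9% of the 13350 genes tested with 6 libraries, which do not include Egln3. Summed, 48 control counts stood against 4, a rate 13.1 times as high (95% exact interval 4.81 to 50.2, counting error only), and without control replicate 1 it was 22 against 4, a rate 9.3 times as high (3.16 to 37.1). A two-sided exact permutation test over the 6 libraries gave p = 0.1, the smallest it can give for 3 against 3. Egln3 did not pass the default filter on low counts, and edgeR without that filter gave an adjusted p of 0.3 with all 6 libraries and 0.106 without control replicate 1. Relative to Egln1, as the log2 ratio of their values in FPKM, fragments scaled to gene length and library size, with 0.1 added, Egln3 averaged -4.35 ± 0.45 (SD, n = 3) in control and -6.64 ± 0.33 (SD, n = 3) with A20. With A20 Egln3 was at 0.0442, 0.0492 and 0 FPKM, below the 0.1 added, so the size of the ratio there depends on that choice. The ratios did not overlap between the groups, and the exact permutation p was again 0.1. Control replicates 2 and 3, at -4.32 and -3.90, lay above control replicate 1, at -4.81.

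Of the HIF targets, Car9 fell without control replicate 1, and Bnip3 had lower values in A20 overexpression without passing the test. Car9 (ENSMUSG00000028463, chromosome 4, 43506966 to 43513729, plus strand) encodes an enzyme that helps cells export acid. It stood at 58.9 and 61.0 CPM in control replicates 2 and 3 and at 29.1, 36.3 and 38.9 CPM with A20, with no overlap. Its log2 fold change was -0.82 ± 0.16 (SE, edgeR adjusted p = 0.00878). The adjusted p was 0.0671 without A20 replicate 1, the lowest library, and 0.0601 in limma-trend on log2(FPKM + 1). Control replicate 1, at 36.9 CPM, lay within the range of the A20 libraries, and with it the log2 fold change was -0.58 ± 0.25 (SE, edgeR adjusted p = 0.495). An antisense gene within Car9, Gm12454, held 4.74 to 9.60 CPM, and without a stated strand setting its reads and those of Car9 cannot be told apart.

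Bnip3 (ENSMUSG00000078566, chromosome 7, 138890836 to 138909519, minus strand) encodes a mitochondrial receptor for autophagy. It stood at 130.2, 34.4 and 35.1 CPM in control replicates 1, 2 and 3 and at 26.7, 25.0 and 27.6 CPM with A20. It was the 1 tested member whose groups did not overlap over all 6 libraries, as was so for 16.9% of all genes. The log2 fold change was -1.25 ± 0.44 (SE, edgeR adjusted p = 0.433) with all 6 and -0.43 ± 0.16 (SE, edgeR adjusted p = 0.131) without control replicate 1. Its sign was kept in each of the 17 other settings with 6 libraries and the 16 with 5, and none of them called it.

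**Figure D2:**
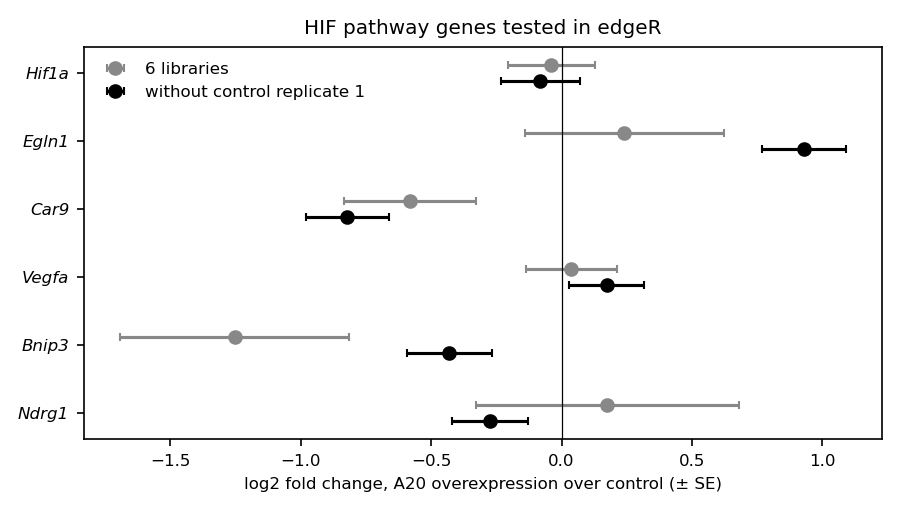
Log2 fold change of A20 overexpression over control (x axis) with its standard error for the 6 HIF pathway genes tested in edgeR, in grey with all 6 libraries and in black without control replicate 1. Without that library Egln1 lies at 0.93 and Car9 at -0.82; with it the errors of Egln1, Bnip3 and Ndrg1 are 0.38, 0.44 and 0.50.

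Vegfa and Ndrg1 were abundant and did not pass the test. Vegfa (ENSMUSG00000023951, chromosome 17, 46016993 to 46032369, minus strand), the main growth factor for blood vessels, stood at 282, 198 and 185 CPM in control and at 200, 232 and 232 CPM with A20. Control replicate 1 was the highest, and the other controls lay just below the A20 libraries. The log2 fold change was 0.04 ± 0.18 (SE, edgeR adjusted p = 0.958) with all 6 libraries and 0.17 ± 0.14 (SE, edgeR adjusted p = 0.523) without control replicate 1. Ndrg1 (ENSMUSG00000005125, chromosome 15, 66929318 to 66969640, minus strand), a gene induced by hypoxia and by cell differentiation, stood at 408, 1774 and 1848 CPM in control and at 1536, 1657 and 1404 CPM with A20. It was 4.03-fold lower in control replicate 1 than the mean of the other 5, the opposite of Bnip3, which was 4.38-fold higher there. The log2 fold change of Ndrg1 turned from 0.18 ± 0.50 (SE, edgeR adjusted p = 0.929) to -0.27 ± 0.15 (SE, edgeR adjusted p = 0.289) when that library was left out. Without control replicate 1, groups did not overlap for 5 of the 6 tested members, Hif1a being the exception, where 37.9% of all genes did not overlap.

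Adm was detected in control replicate 1 alone, and Ankrd37 was at the limit of detection. Adm (ENSMUSG00000030790, chromosome 7, 110627661 to 110629820, plus strand), which encodes the vasodilator peptide adrenomedullin, had 58 counts in control replicate 1, or 3.78 CPM, and 0 in the other 5. The observed 3.78 CPM was 17.4-fold the highest limit that 0 counts allow in 1 library, leaving out the counting error of the 58 counts. Ankrd37 (ENSMUSG00000050914, chromosome 8, 45996902 to 46005707, minus strand), an ankyrin repeat protein gene, had 15, 0 and 4 counts in control and 6, 9 and 0 with A20. Its summed rate in control was 1.39 times that with A20 (95% exact interval 0.668 to 2.93, counting error only). Without control replicate 1 it turned to 0.451 times (0.109 to 1.42), from 4 counts against 15, so a difference was not detectable at this depth either way. Ufsp2, which overlaps Ankrd37 on the other strand, held 63.5 to 85.6 CPM, and part of the few Ankrd37 counts cannot be told apart from its reads.

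Control replicate 1 held the highest value of 7 of the 10 genes (Epas1, Egln1, Egln3, Vegfa, Bnip3, Adm and Ankrd37) and the lowest of Ndrg1, with Hif1a and Car9 inside the range of the other 5. Among the 6 tested members it lay outside that range for 4, against 62.4% of all genes, and over 2-fold from the mean of the other 5 for 3 (Egln1, Bnip3 and Ndrg1), against 20.2% of all genes. These values compare 1 library with 5 and have no replicate check. The share of all genes that are highest in control replicate 1 was not computed, so the 7 genes highest there are a description. Of these, Epas1, Egln3, Adm and Ankrd37 were below the filter.

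Per length, the members covered a wide range. Averaged over the 6 libraries, Ndrg1 was at 220.4 FPKM ± 85.6 (SD, n = 6), Vegfa at 51.3 ± 6.04, Hif1a at 50.3 ± 5.32, Bnip3 at 19.7 ± 15.7, Car9 at 18.9 ± 6.29 and Egln1 at 11.7 ± 4.54 FPKM (SD, n = 6 for each). Vegfa and Hif1a did not differ beyond their spread, Vegfa being the higher in 3 of 6 libraries. Bnip3 exceeded Car9 in control replicate 1 alone, at 51.6 against 14.4 FPKM. Car9 exceeded Egln1 in 4 of 6 libraries; in control replicate 1 Egln1 was the higher, at 18.7 FPKM, and in A20 replicate 1 it was at 12.8 against 12.6 FPKM. The remaining 4 genes averaged 0.349 FPKM (Adm), 0.228 (Ankrd37), 0.211 (Egln3) and 0.121 FPKM (Epas1), each no more than 2.09 FPKM in any library, and did not differ from one another beyond their spread.

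**Figure D3:**
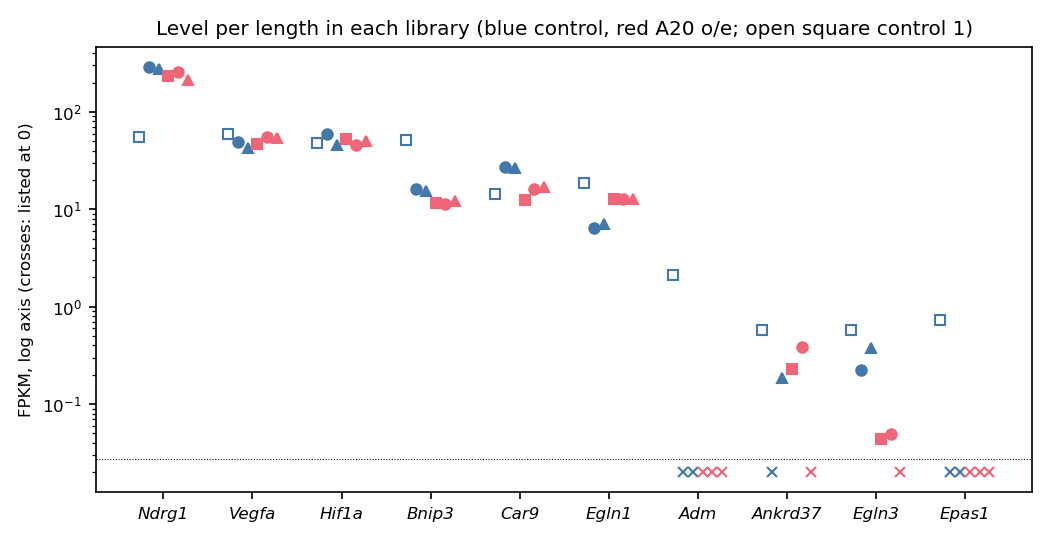
FPKM on a log axis of each HIF pathway gene in each library, in the order of the mean over 6 libraries, with controls in blue, A20 overexpression in red, control replicate 1 as an open square and crosses for values listed at 0. The 6 genes at the left lie at 6.36 FPKM or more in all libraries, and the other 4 at 2.09 FPKM or less.

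Other pathway genes were taken from 3 lists that hold no member. Of 78 symbols, 75 were in the table and 66 were tested. With all 6 libraries edgeR called 0 of the 66, with 9 at an unadjusted p under 0.05, as had 10% of all genes. Without control replicate 1 it called 3 higher and 3 lower, 9.09%, where 4.6% of all genes were called, and 60 did not pass. An unadjusted p under 0.05 was then found for 25 of the 66, and for 21.6% of all genes.

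Among the partners, degraders and cofactors of HIF, 1 of 14 tested genes rose, 0 fell and 13 did not pass without control replicate 1, with a median log2 fold change of -0.01 against 0.00 over all genes. With all 6 libraries the median was 0.06 against -0.03. The gene that rose was Cited2, a HIF-induced protein that competes with HIF-1 alpha for its coactivators. It stood at 65.8 and 106.9 CPM in control replicates 2 and 3 and at 151, 132 and 166 CPM with A20, 1.70-fold higher in the fit (log2 fold change 0.76 ± 0.17 SE, edgeR adjusted p = 0.0191). Control replicate 1, at 142 CPM, lay within the A20 range, and with it the log2 fold change was 0.56 (edgeR adjusted p = 0.483). The HIF partner gene Arnt did not pass, with a log2 fold change of -0.33 (edgeR adjusted p = 0.177), or -0.29 with all 6 libraries (edgeR adjusted p = 0.544). Arnt2, of the same list, fell just short of passing, with a log2 fold change of -0.54 (edgeR adjusted p = 0.056). With all 6 libraries that of Arnt2 was -0.21 (edgeR adjusted p = 0.866). Vhl, the gene of the ligase that removes HIF alpha, had a log2 fold change of -0.12 (edgeR adjusted p = 0.712), which turned to 0.14 with all 6 libraries (edgeR adjusted p = 0.891). Arnt, Arnt2 and Vhl were chosen after their values were seen.

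Of the HIF targets in metabolism, 2 of 22 rose and 1 fell, and 19 did not pass. Pfkl, a subunit of phosphofructokinase, rose 1.54-fold from 83.9 and 118.8 CPM in control replicates 2 and 3 to 145, 157 and 176 CPM (edgeR adjusted p = 0.0311). Eno1, the glycolytic enolase, rose 1.46-fold from 460 and 532 CPM to 809, 688 and 726 CPM (edgeR adjusted p = 0.0421). Pfkfb3, whose product makes an activator of phosphofructokinase, fell 1.44-fold from 142 and 133 CPM to 101, 93.9 and 98.4 CPM (edgeR adjusted p = 0.0348). The list's median log2 fold change was 0.24 without control replicate 1, with 16 of 22 genes above 0, and -0.28 with it, with 4 above 0. Control replicate 1 was more than 2-fold above the mean of the other 5 for 11 of the 22, against 13.7% of all genes, with Pfkl at 352 CPM and Eno1 at 1862 CPM there, while Pfkfb3, at 98.6 CPM, lay within the A20 range. With it the log2 fold changes of Pfkl and Eno1 turned to -0.13 and -0.28, and that of Pfkfb3 was -0.33, none of them past the test.

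Of the HIF targets with other roles, 0 of 30 rose and 2 fell. Ccng2, an atypical cyclin linked to growth arrest, fell 1.65-fold, from 147 and 109 CPM to 77.2, 93.4 and 69.1 CPM (edgeR adjusted p = 0.0229). Kdm3a, a histone H3 lysine demethylase gene, fell 1.44-fold, from 169 and 135 CPM to 109, 109 and 107 CPM (edgeR adjusted p = 0.0479). Control replicate 1 lay below each A20 library for both, at 52.8 and 91.5 CPM, and with it the log2 fold changes were -0.37 and -0.28, neither past the test. Kdm3a also missed the threshold with upper-quartile factors (edgeR adjusted p = 0.0506), with library size alone (0.0619), without robust estimation (0.0591) and in limma-voom (0.0659), and Eno1 without robust estimation (edgeR adjusted p = 0.0525). None of the 6 list genes called kept its call without control replicate 2, without A20 replicate 1, 2 or 3, each left out in turn, or in limma-trend at either pseudocount, whereas Egln1 did. Without control replicate 2 the log2 fold changes shrank by over 1.5 times for Kdm3a (-0.31 from -0.53), Ccng2 (-0.44 from -0.72) and Cited2 (0.49 from 0.76). The list's median log2 fold change was -0.01 without control replicate 1 and -0.22 with it, where the median of all genes was -0.03.

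**Figure D4:**
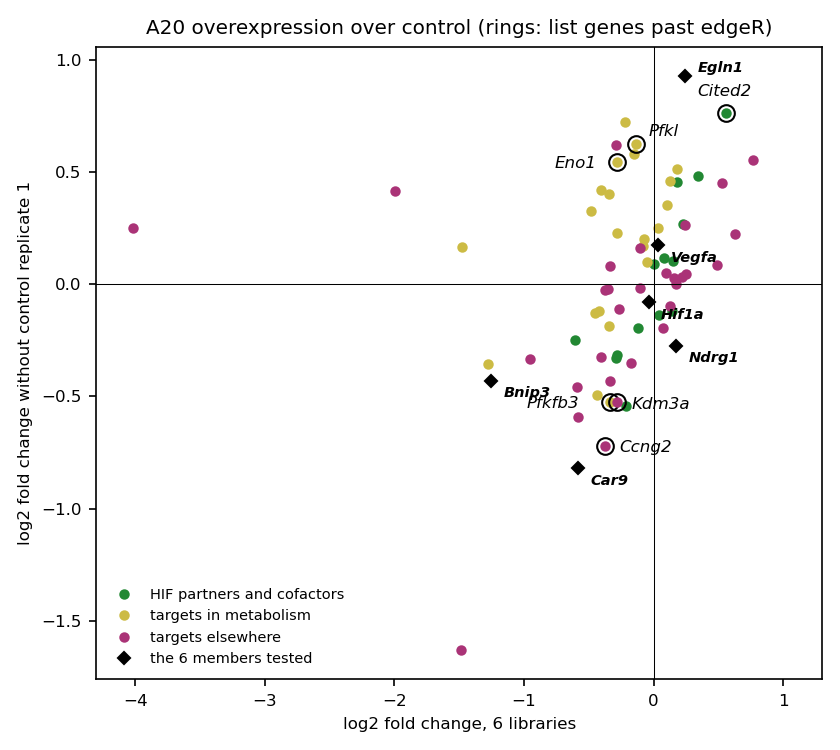
Log2 fold change of A20 overexpression over control without control replicate 1 (y axis) against that with all 6 libraries (x axis) for the 66 list genes (coloured points) and the 6 tested HIF pathway genes (black diamonds), with rings around the 6 list genes past edgeR's test without control replicate 1. The 2 fits share 5 libraries; metabolic targets lie mostly above 0 on the y axis (16 of 22) and below 0 on the x axis.

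The genes whose profile over the 6 libraries was most like those of Egln1 and Car9 were sought among 9698 protein-coding genes by the root mean square difference of centred log2 CPM. For Egln1 they were Taco1, a mitochondrial translation factor (0.0818), Mon1a, a gene of vesicle trafficking (0.0828) and Wnt4, a signalling ligand of gonad development (0.101). Taco1 stood at 17.5, 4.25 and 5.64 CPM in control replicates 1, 2 and 3 and at 10.2, 8.56 and 9.94 CPM with A20. For Car9 they were Ifi27l2a, an interferon-inducible gene (0.109), Ociad2 (0.12) and Bbs4, a subunit of the ciliary BBSome (0.141). Ifi27l2a stood at 5.28, 10.9 and 10.2 CPM in control and at 4.08, 5.69 and 6.23 CPM with A20. These likenesses are a description over 6 libraries, 1 of which differs from the rest.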

How the data were processed

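RNA of 3 control and 3 A20-overexpressing TM3 libraries was sequenced, per the labels' protocols from column-purified RNA with a SMARTER mRNA kit. The authors deposited whole-number counts per gene, used as deposited, and FPKM, which equal the count divided by gene length and by a library size in 1 ratio to median-of-ratios factors. The build is GRCm38 (mm10), per the submitters' processing notes; the aligner, counter and strand setting are not given in the sources used here. CPM use each library's total count, and the correlations between libraries use TMM factors as well. The test was edgeR 4.0.16's quasi-likelihood F test (R 4.3.3) with TMM factors, the default filter by group, robust estimation and a 0.05 threshold on p adjusted by Benjamini-Hochberg over every tested gene. The standard error is the log2 fold change over the square root of F. The script was tested on simulated counts.

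The groups come from the sample titles. Members, lists, tests and alternatives were chosen with earlier results of these data known, including that control replicate 1 differs. The rule named all 10 members, up to 3 called genes per list and direction, and the 3 protein-coding genes (5 CPM or more on average) nearest to each called member; 0.5 was added to CPM before the log2 for that likeness. Alternatives were median-of-ratios, upper-quartile and library-size scaling, 2 filters, DESeq2 1.42.0, limma 3.58.1 (voom, and trend on log2(FPKM + 1) and log2(FPKM + 0.1)), no robust estimation, a replicate block and leaving out each library. Log2 ratios of Epas1 to Hif1a and of Egln3 to Egln1 were planned on FPKM without a pseudocount and are undefined there, since libraries hold zeros. Intervals used Python 3.11.15 with scipy 1.17.1. Permutation tests were run in R, except that of the ratio without A20 replicate 3, which was run in Python.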

Additional observations from a re-analysis of the deposited data

How the results depend on the processing

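With all 6 libraries edgeR called 2 genes, 0 of them members. It called 0 with upper-quartile factors, with library size alone and without robust estimation, as did limma-voom (0) and limma-trend on log2(FPKM + 1) or log2(FPKM + 0.1) (0 each), while edgeR called 23 without a filter and DESeq2 183. Leaving out 1 library gave 0 to 628 genes and 0 to 2 members, the upper value of each without control replicate 1. Without that library edgeR called 628 genes, 1173 without a filter, and limma-trend 109 on log2(FPKM + 1) and 63 on log2(FPKM + 0.1), with 1 member (Egln1) called in each of the last pair. Leaving out a further library gave 142 genes (A20 replicate 1), 191 (A20 replicate 2), 160 (A20 replicate 3), 507 (control replicate 2) and 2423 (control replicate 3), and 1 to 2 members. The fits left with 1 control assume that it varies like the A20 libraries.

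With a replicate block edgeR called 2 genes and 0 members with 6 libraries, and 797 genes and 2 members with 5. In the latter fit A20 replicate 1 has no control of its number, so it adds nothing to the estimated fold changes. Deviations of same-numbered libraries from their group means correlated at 0.0258, 0.115 and -0.0387, and not every library correlated best with its own number. The control mean includes control replicate 1, which differs from the rest, so these values cannot tell whether same-numbered libraries were handled together. The block ended the 5-library calls of Kdm3a, Pfkfb3 and Eno1 and no other call named in the report.

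With 6 libraries some log2 fold changes, none called in that fit, changed sign when 1 library was left out. Their ranges were -0.106 (without control replicate 3) to 0.0855 (without control replicate 2) for Hif1a, with 0.0286 without A20 replicate 2, -0.0226 (without control replicate 2) to 0.929 (without control replicate 1) for Egln1, -0.0621 (without control replicate 3) to 0.173 (without control replicate 1) for Vegfa, with -0.00343 without A20 replicate 2, -0.275 (without control replicate 1) to 0.483 (without control replicate 2) for Ndrg1, -0.722 to 0.0414 for Ccng2 and -0.527 to 0.00686 for Kdm3a (both from without control replicate 1 to without control replicate 2), and -0.444 to 0.625 for Pfkl and -0.569 to 0.546 for Eno1 (both from without control replicate 2 to without control replicate 1). Vegfa was -0.0125 with library size alone, and Pfkl was 0.0978 in limma-voom, 0.0842 and 0.0948 in limma-trend at the larger and the smaller pseudocount and 0.106 with the replicate block. With 5 libraries Hif1a ran from -0.249 without control replicate 3 to 0.112 without control replicate 2. The cause of these changes was not tested. Epas1, Egln3, Adm and Ankrd37 were below the filter. For the planned log2 ratio of Epas1 to Hif1a FPKM, a pseudocount of 0.1 or 1 gave an exact permutation p of 0.8 each. For Egln3 to Egln1 a pseudocount of 1 gave means of -2.93 in control and -3.74 with A20 (exact permutation p = 0.1). Without A20 replicate 3, where Egln3 has 0 counts, the ratio of Egln3 to Egln1 is defined without a pseudocount and averaged -4.70 in control and -8.09 with A20 (exact permutation p = 0.1, the smallest possible for 3 against 2). No other library was left out for these ratios.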

Other observations

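Some HIF-linked list genes were abundant in control replicate 1 and scarce elsewhere, a choice made after their values were seen. Angptl4, a secreted inhibitor of lipoprotein lipase, stood at 405 CPM in control replicate 1 and at 4.25, 8.67, 9.52, 5.24 and 8.68 CPM in the other 5 libraries. Tfrc, the transferrin receptor, stood at 128 CPM against 6.86 to 14.9 CPM. Pdk1, a pyruvate dehydrogenase kinase gene, stood at 91.0 CPM against 5.92 to 16.1 CPM. Lox, a collagen-crosslinking enzyme gene and also a HIF target, went the other way, at 231 CPM against 668 to 888 CPM, as did Tgfb3, at 5.28 CPM against 17.4 to 25.6 CPM. Over the lists, control replicate 1 was more than 2-fold above the mean of the other 5 libraries for 11 of 22 metabolic targets, 6 of 30 targets with other roles and 1 of 14 partners, and more than 2-fold below it for 0, 2 (Lox and Tgfb3) and 0. That library also held most of the Leydig marker RNA, whose part in these values was not tested.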
